A study of Mus musculus with 18 samples.

Results

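Interferon-inducible Ifi genes were described in dorsal root ganglia (DRG), the clusters of sensory neuron cell bodies beside the spinal cord, of mice with and without a myeloma in the femur. The set holds 10 genes listed by symbol: the PYHIN (Ifi200 family) genes Ifi203, Ifi204, Ifi207, Ifi211, Ifi213 and Mndal, the Ifi27 family genes Ifi27 and Ifi27l2a, and Ifi44 and Ifi35. All 10 were among 48529 genes with a read estimate and among 15774 genes that passed a filter on low counts. They were selected on their difference between the groups in these same libraries (scaled read estimates in MM and SHAM), so that difference is described here and not tested.

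In the MM group were 9 mice whose femur had been inoculated with 5TGM1-GFP cells, a myeloma (malignant plasma cell) line that carries green fluorescent protein, and in the SHAM group 9 mice that received vehicle there. Mice of both groups were male C57BL/KaLwRijHsd, a strain that lacks the gene Samsn1, aged between 5 and 7 weeks in the labels. Ganglia L2 to L4 of the operated side were taken whole 24 days after surgery, with neurons, glia, vessels and immune cells together, so fewer cells of a type and less RNA per cell cannot be told apart. Libraries are named by group and number (MM5), and each held between 19014161 and 21538262 estimated reads in genes. Ighg2b, the heavy chain constant region gene used here as a measure of myeloma RNA, ran from 11.7 to 4374 CPM (reads relative to the size of their library) in MM libraries and from 0.100 to 16.4 CPM in SHAM libraries. It was highest in MM9 (4374 CPM), MM8 (2334 CPM) and MM5 (2197 CPM), against at most 389.9 CPM in the other MM libraries. Samsn1 was at 0 in all MM libraries and at or under 0.05 CPM in SHAM libraries.

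Interferons are secreted proteins that act through cell surface receptors to switch on a large set of genes, many of which limit viruses or sense foreign nucleic acid. PYHIN proteins carry a HIN domain that binds DNA and, in most members, a pyrin domain that binds partner proteins. In mouse their genes lie side by side on chromosome 1, and resident and recruited myeloid cells are among the cells known to express them.

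The reference promoters (250 bases before to 50 after the annotated start, RefSeq, GRCm38.p6) show how alike the PYHIN genes are around their starts. An entry was found for 7 of the 10 genes; Ifi204, Ifi27 and Ifi27l2a had none, and Ifi203 and Mndal each had a further entry that is not shown. In the sequences below, capitals mark a pair of GAAA repeats. In the PYHIN genes it is GAAANNGAAA, the core of the interferon-stimulated response element. In Ifi44 it is GAAANGAAA on the opposite strand, which has another spacing than that core. Shown here are the 5 PYHIN promoters and that of Ifi44. They lie at chr1:173942443-173942742 (Ifi203), chr1:173880138-173880437 (Mndal), chr1:173741760-173742059 (Ifi207), chr1:173912997-173913296 (Ifi211), chr1:173599223-173599522 (Ifi213) and chr3:151749861-151750160 (Ifi44). All of these genes are on the minus strand, and each sequence reads 5′ to 3′ in the direction of the gene.
Ifi203: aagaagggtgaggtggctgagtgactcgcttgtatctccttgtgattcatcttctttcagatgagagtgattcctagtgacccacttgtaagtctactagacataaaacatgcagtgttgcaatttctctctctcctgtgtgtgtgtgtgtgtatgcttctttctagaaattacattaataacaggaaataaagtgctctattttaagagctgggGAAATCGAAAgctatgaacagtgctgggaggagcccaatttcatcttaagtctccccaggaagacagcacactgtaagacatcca
Mndal: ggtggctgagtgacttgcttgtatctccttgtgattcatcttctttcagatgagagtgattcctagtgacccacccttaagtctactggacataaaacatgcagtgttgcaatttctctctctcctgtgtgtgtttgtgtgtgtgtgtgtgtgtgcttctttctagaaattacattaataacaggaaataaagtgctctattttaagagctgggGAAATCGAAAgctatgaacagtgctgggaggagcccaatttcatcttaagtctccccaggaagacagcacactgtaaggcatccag
Ifi207: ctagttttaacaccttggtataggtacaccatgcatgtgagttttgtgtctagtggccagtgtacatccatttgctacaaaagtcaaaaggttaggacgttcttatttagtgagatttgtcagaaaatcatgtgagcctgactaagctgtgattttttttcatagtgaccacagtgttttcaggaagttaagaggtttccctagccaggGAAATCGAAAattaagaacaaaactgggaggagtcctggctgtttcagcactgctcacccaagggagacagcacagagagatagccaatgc
Ifi211: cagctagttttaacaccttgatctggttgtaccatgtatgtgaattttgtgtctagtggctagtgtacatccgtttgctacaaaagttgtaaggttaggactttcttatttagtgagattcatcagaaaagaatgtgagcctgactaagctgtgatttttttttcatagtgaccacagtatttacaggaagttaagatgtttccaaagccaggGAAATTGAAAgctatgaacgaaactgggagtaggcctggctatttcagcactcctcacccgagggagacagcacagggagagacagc
Ifi213: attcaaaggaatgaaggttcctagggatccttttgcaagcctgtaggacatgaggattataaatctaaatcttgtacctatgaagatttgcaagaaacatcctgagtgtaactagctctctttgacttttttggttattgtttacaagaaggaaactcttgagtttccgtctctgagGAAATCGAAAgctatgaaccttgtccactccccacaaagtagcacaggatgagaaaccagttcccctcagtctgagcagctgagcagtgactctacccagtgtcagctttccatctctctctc
Ifi44: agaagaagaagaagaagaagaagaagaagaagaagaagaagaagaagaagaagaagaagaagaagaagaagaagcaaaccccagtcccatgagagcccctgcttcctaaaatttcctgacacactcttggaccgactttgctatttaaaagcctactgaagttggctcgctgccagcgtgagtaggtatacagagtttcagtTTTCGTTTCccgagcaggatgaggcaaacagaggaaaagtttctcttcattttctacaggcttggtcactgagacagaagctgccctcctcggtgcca

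GAAANNGAAA was found on either strand in 5 of 7 member genes with an entry, which were all 5 PYHIN members with one, and in 3.443% of 32851 reference promoters of the same length. It read GAAATCGAAA in Ifi203, Mndal, Ifi207 and Ifi213 and GAAATTGAAA in Ifi211. In Ifi203, Mndal, Ifi211 and Ifi207 its first base lay 35, 36, 37 and 41 bases before the start, and in Ifi213 73 bases before it. The count is by gene over all its entries and the percentage by promoter. The further Ifi203 entry had no match, and that of Mndal had a match on the opposite strand. Outside the set, 5 of 11 other Ifi-named and PYHIN genes with an entry had GAAANNGAAA, which read GAAATCGAAA in Ifi206, Ifi208 and Ifi214. GAAANGAAA, a spacing searched for after the sequences had been seen, was in Ifi44 and Ifi35 and in 3.166% of all promoters; the matches of the 2 patterns may overlap each other. Ifi203 and Mndal shared 97.6% of 289 aligned promoter bases and Ifi207 and Ifi211 88.4% of 294, while the other PYHIN pairs shared between 62.5% and 68.4%. These matches are letters in a reference window, and no binding was measured.

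**Figure D1:**
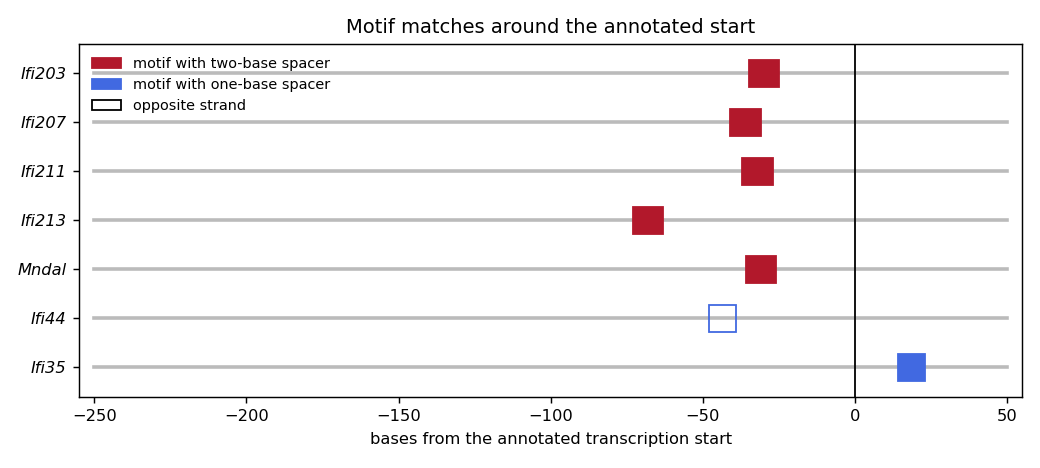
Matches of the 2 motifs in the reference promoters of the member genes with an entry, by distance in bases from the annotated start (vertical line); red boxes are the form with a 2-base spacer, blue boxes that with a 1-base spacer and open boxes lie on the opposite strand. The 5 PYHIN genes have the 2-base form between 73 and 35 bases before the start.

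Levels of the genes were compared per transcript length, in TPM (relative transcript abundance). In SHAM ganglia Ifi27 was at 204.8 ± 16.3 TPM, Ifi27l2a at 61.5 ± 33.4 TPM and Ifi35 at 19.3 ± 2.21 TPM (SD, n = 9). The PYHIN members and Ifi44 lay far lower in SHAM, from 3.82 ± 1.48 TPM for Mndal, 2.75 ± 0.929 TPM for Ifi203 and 1.99 ± 0.844 TPM for Ifi204 to 0.570 ± 0.260 TPM for Ifi213 (SD, n = 9). Between these stood Ifi211 at 1.54 ± 0.916 TPM, Ifi44 at 1.36 ± 0.406 TPM and Ifi207 at 0.948 ± 0.408 TPM (SD, n = 9). The ranges over SHAM libraries did not overlap between Ifi27 and Ifi27l2a, between Ifi27l2a and Ifi35 or between Ifi35 and Mndal, whereas each gene from Mndal downward overlapped its neighbour in the order. In MM ganglia Ifi27 (206.5 ± 20.0 TPM) and Ifi27l2a (192.5 ± 136 TPM) overlapped, and Ifi211 (9.94 ± 10.4 TPM) and Mndal (10.6 ± 6.92 TPM) had the highest means of the PYHIN members (SD, n = 9 each).

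**Figure D2:**
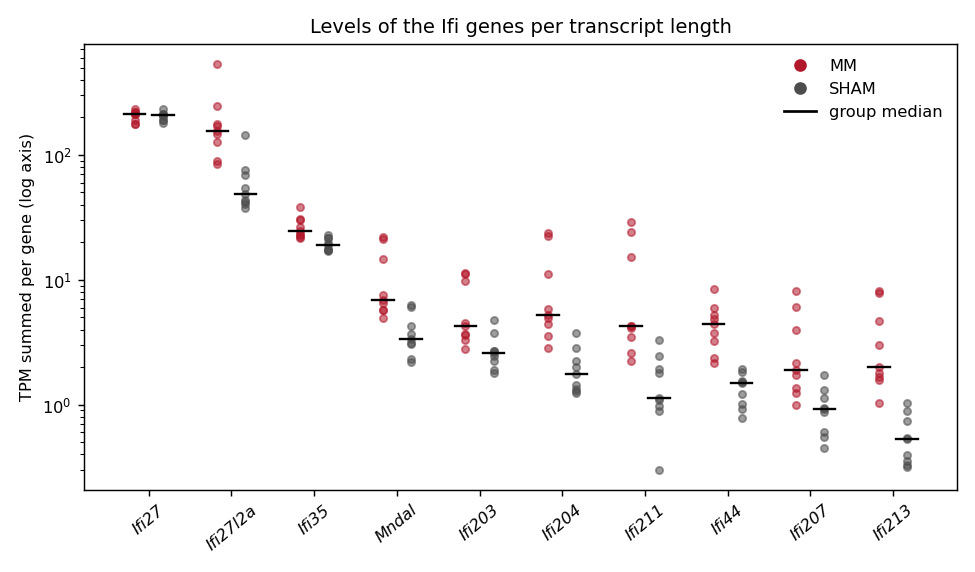
TPM summed per gene (log axis) in each MM (red) and SHAM (grey) library, with group medians as black bars and genes in the order of their SHAM mean. Ifi27, Ifi27l2a and Ifi35 stand apart from the 7 other genes in SHAM, and Ifi27 alone has similar medians in both groups (212.9 TPM in MM and 208.8 TPM in SHAM).

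Across the set, 9 of 10 genes counted as higher in MM in the edgeR quasi-likelihood fit over all genes (Benjamini-Hochberg adjusted p under 0.05) and none as lower, where 2.75% of all genes tested counted as higher, 0.241% as lower and 2.99% as either. Because this contrast chose the genes, nothing is read from that count. The median log2 fold change was 1.78 over the 10 genes and -0.0 over all genes. The fold changes ran from 0.10 for Ifi27 to 2.83 for Ifi211. In 2 genes, Ifi44 and Ifi213, every MM library lay above every SHAM library in CPM, which held for 0.12% of all genes tested. MM5, MM8 and MM9 were the 3 highest MM libraries for 8 of the 10 genes, including all 6 PYHIN members.

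**Figure D3:**
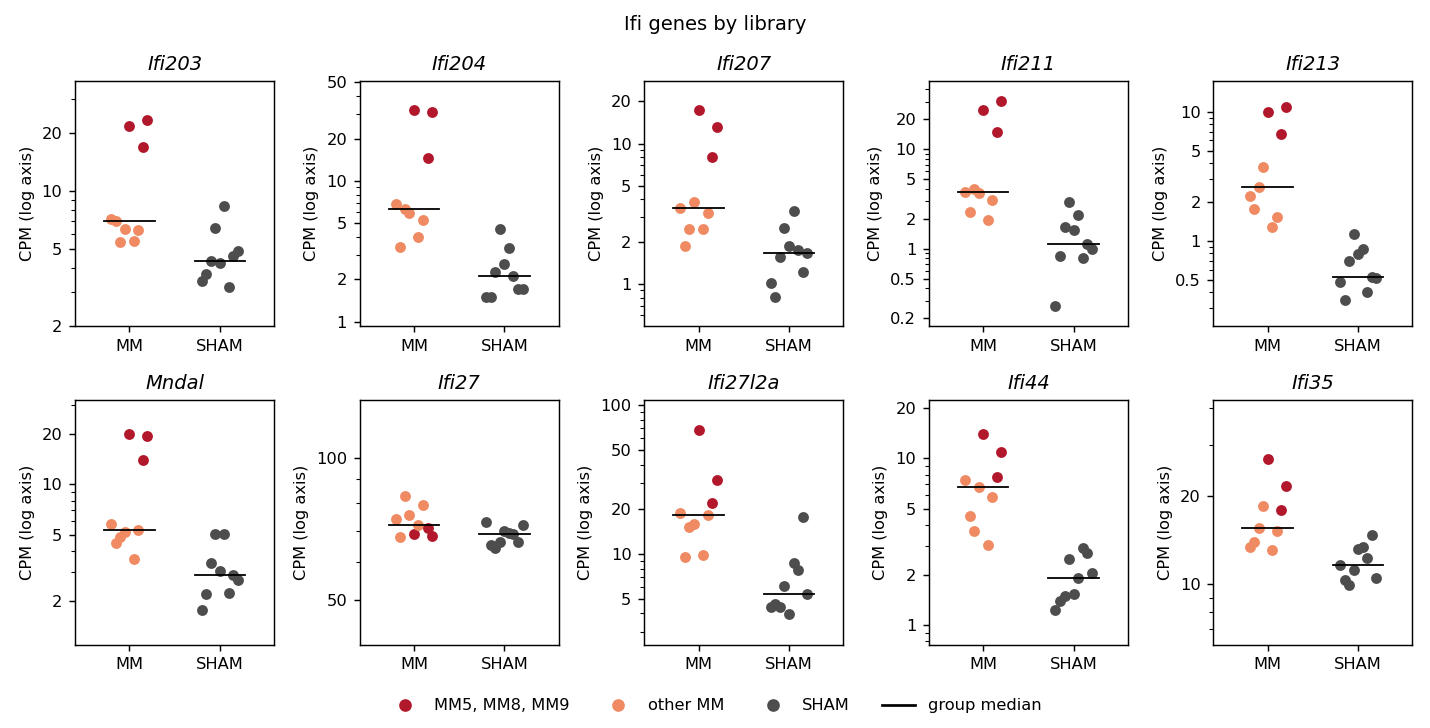
CPM (log axis) of each gene in 9 MM and 9 SHAM libraries, 1 point a library, with MM5, MM8 and MM9 in dark red and group medians as black bars. In the 6 PYHIN genes these 3 libraries stand above all others, while Ifi27 overlaps between the groups.

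Among the PYHIN genes, Ifi204, a DNA-binding protein that mouse studies place upstream of the adaptor STING, had its lowest, median and highest values at 3.40, 6.34 and 32.0 CPM in MM libraries and at 1.49, 2.10 and 4.54 CPM in SHAM libraries. MM5 (32.0 CPM), MM9 (30.9 CPM) and MM8 (14.5 CPM) were high and the other MM libraries were at or under 6.80 CPM, and 7 of 9 MM libraries exceeded the highest SHAM library, SHAM4. The log2 fold change was 2.36 ± 0.46 (SE). Ifi211 was at 1.94, 3.75 and 30.3 CPM in MM libraries and 0.267, 1.11 and 2.98 CPM in SHAM libraries (lowest, median and highest). MM9 (30.3 CPM), MM5 (24.8 CPM) and MM8 (14.8 CPM) were again highest, and 7 of 9 MM libraries lay above every SHAM library. Its log2 fold change of 2.83 ± 0.60 (SE) was the largest of the set.

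Ifi213, which had the lowest SHAM mean of the set in TPM, was at 1.28, 2.62 and 10.8 CPM in MM libraries and 0.351, 0.530 and 1.12 CPM in SHAM libraries (lowest, median and highest). The groups did not overlap: the lowest MM library, MM6 (1.28 CPM), lay above the highest SHAM library, SHAM4 (1.12 CPM). That separation was narrow, and in the authors' deposited table of normalized values 8 of 9 MM libraries exceeded every SHAM library, with MM7 at 24.2 and SHAM6 at 24.9. The log2 fold change was 2.80 ± 0.44 (SE).

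Ifi207 ranged over 1.87, 3.50 and 17.4 CPM in MM libraries and 0.803, 1.65 and 3.31 CPM in SHAM libraries (lowest, median and highest), with a log2 fold change of 1.83 ± 0.44 (SE). For Mndal, the myeloid nuclear differentiation antigen-like gene, the values were 3.59, 5.36 and 20.1 CPM in MM libraries and 1.76, 2.86 and 5.08 CPM in SHAM libraries, with a log2 fold change of 1.55 ± 0.36 (SE). Ifi207 and Mndal overlapped between the groups, with 5 and 6 of 9 MM libraries above every SHAM library. Ifi203 overlapped most among the PYHIN members: it was at 5.44, 7.04 and 23.3 CPM in MM libraries and 3.20, 4.37 and 8.38 CPM in SHAM libraries, and only MM5, MM8 and MM9 exceeded the highest SHAM library. Its log2 fold change was 1.20 ± 0.32 (SE).

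The 6 PYHIN members also shared their highest libraries within SHAM. SHAM4 or SHAM6 was the highest SHAM library for each of them, and their summed level was 23.2 CPM in SHAM6 and 22.6 CPM in SHAM4, against at most 14.0 CPM in the other SHAM libraries. In MM the sum was 127.9 CPM in MM9, 126.1 CPM in MM5 and 75.0 CPM in MM8, and between 18.8 and 29.3 CPM in the other MM libraries. MM2 (20.9 CPM) and MM6 (18.8 CPM) thus lay below SHAM4 and SHAM6 in this sum.

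Ifi44, an interferon-induced cytoplasmic protein, did not overlap between the groups, at 3.03, 6.73 and 14.1 CPM in MM libraries and 1.23, 1.92 and 2.90 CPM in SHAM libraries (lowest, median and highest). The separation of Ifi44 was narrow as well, with MM6 (3.03 CPM) as the lowest MM library and SHAM7 (2.90 CPM) as the highest SHAM library. Its highest SHAM libraries were not those of the PYHIN members, with SHAM7 and SHAM8 (2.71 CPM) on top and SHAM6 at 1.92 CPM. The log2 fold change was 1.85 ± 0.27 (SE), and in the authors' deposited normalized table the groups were likewise apart, with MM6 at 68.1 and SHAM9 at 57.7.

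The Ifi27 family encodes small membrane proteins, and its members differed in these ganglia. Ifi27 was at 67.8, 71.9 and 83.0 CPM in MM libraries and 64.3, 69.0 and 73.2 CPM in SHAM libraries (lowest, median and highest), and 4 of 9 MM libraries exceeded every SHAM library. Its log2 fold change was 0.10 ± 0.04 (SE), the smallest of the set and the only one that did not count as higher. MM3 (83.0 CPM) and MM7 (79.4 CPM) were highest, and MM5 (69.0 CPM) and MM9 (68.1 CPM) lay near the bottom of the MM group, unlike in the other genes. Ifi27l2a was at 9.51, 18.2 and 68.3 CPM in MM libraries and 3.96, 5.42 and 17.8 CPM in SHAM libraries. A single library stood apart at the top of each group: MM5 at 68.3 CPM, with MM9 next at 31.3 CPM, and SHAM8 at 17.8 CPM, with SHAM6 next at 8.77 CPM. The log2 fold change of Ifi27l2a was 1.72 ± 0.38 (SE), and 5 of 9 MM libraries exceeded SHAM8.

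Ifi35, a leucine zipper protein that binds Nmi, had the smallest fold change of the 9 genes that counted as higher. It was at 13.1, 15.6 and 26.8 CPM in MM libraries and 9.94, 11.6 and 14.7 CPM in SHAM libraries (lowest, median and highest), with a log2 fold change of 0.54 ± 0.13 (SE). The groups overlapped, since 6 of 9 MM libraries exceeded SHAM8, the highest SHAM library. Nmi itself averaged 9.41 ± 2.98 CPM over MM libraries and 6.64 ± 0.969 CPM over SHAM libraries (SD, n = 9 each), and edgeR gave it adjusted p = 0.0797.

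Leaving out MM5, MM8 and MM9, the libraries with the most Ighg2b, lowered the fold change of 9 of the 10 genes, while that of Ifi27 was 0.14 ± 0.04 without them. Without these libraries 3 genes counted as higher, Ifi44, Ifi204 and Ifi213, where 0.331% of 15995 genes tested did, and again nothing is read from the count. The median log2 fold change over the set became 0.89, against -0.01 over all genes. Ifi213 had the largest value in this fit, at 1.76 ± 0.27, followed by Ifi44 at 1.39 ± 0.22, Ifi204 and Ifi211 at 1.16 ± 0.24 and 1.16 ± 0.35, and Ifi27l2a at 1.05 ± 0.31 (log2 fold change ± SE, 6 MM and 9 SHAM libraries). Mndal was then at 0.63 ± 0.21, Ifi203 at 0.39 ± 0.18 and Ifi35 at 0.33 ± 0.10. The fold change of Ifi44 without these libraries was 1.39 against 1.85 with them, and that of Ifi203 0.39 against 1.20.

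**Figure D4:**
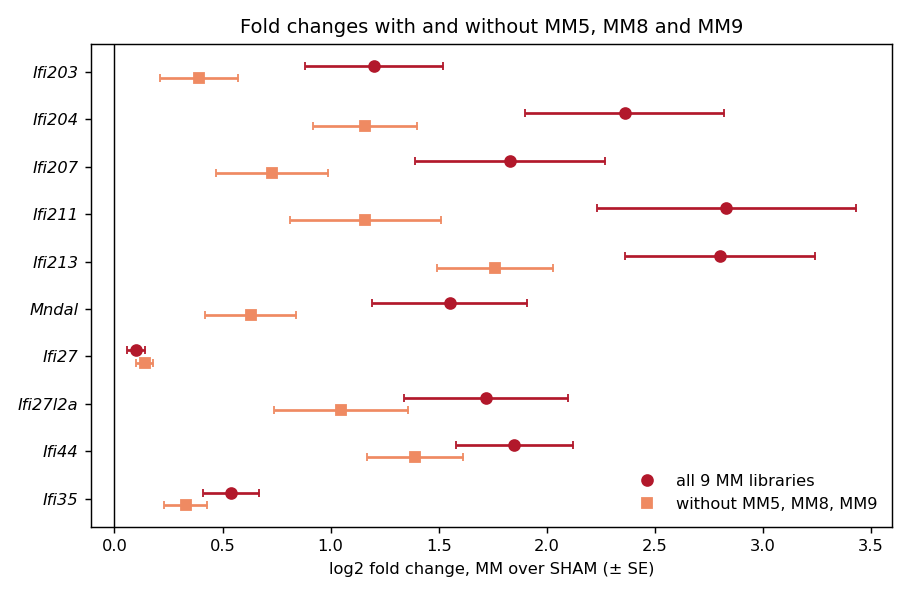
Log2 fold change of MM over SHAM with its SE, from all 9 MM libraries (red circles) and without MM5, MM8 and MM9 (orange squares). All 10 values are above 0 in both fits; the PYHIN genes lie between 1.20 and 2.83 with all libraries and between 0.39 and 1.76 without the 3.

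The slope on Ighg2b within the MM group asks which genes followed the amount of myeloma RNA among inoculated mice. It uses no SHAM library, but it rests on the 9 MM libraries on which the genes were selected, and MM5, MM8 and MM9 were high in both Ighg2b and most of these genes. The slopes are therefore a description as well. In the edgeR fit over all genes 6 of the 10, the PYHIN members, counted as positive, where 9.37% of 16910 genes tested counted as positive and 0.668% as negative, and nothing is read from that count. The median slope was 0.28 log2 units per doubling of Ighg2b over the 10 genes and 0.0 over all genes.

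Ifi211 had the steepest slope of the set, at 0.50 ± 0.09 log2 units per doubling of Ighg2b (SE), and Ifi204 followed at 0.42 ± 0.07. The other PYHIN members were Ifi207 (0.39 ± 0.07), Ifi213 (0.37 ± 0.08), Mndal (0.29 ± 0.07) and Ifi203 (0.24 ± 0.07). Outside the family, Ifi27l2a had a slope of 0.27 ± 0.08, Ifi44 of 0.18 ± 0.06, Ifi35 of 0.09 ± 0.03 and Ifi27 of -0.01 ± 0.02. Ifi27l2a thus lay above Ifi203 in this fit, but below it without MM2, where the slopes were 0.327 and 0.442. Differences between slopes were not tested.

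These slopes rested on few libraries. The slope of every PYHIN member was steeper without MM2, the MM library with the least Ighg2b, from 0.442 for Ifi203 to 0.747 for Ifi211. Without MM9 none of the 10 genes counted as positive, and the slope was 0.447 for Ifi211 and 0.385 for Ifi204. Without MM5, MM8 and MM9, an alternative added after the data had been seen, none counted either, and the slopes lay between -0.038 for Ifi203 and 0.161 for Ifi204. Over the 6 remaining MM libraries Ighg2b still ran from 11.7 CPM in MM2 to 389.9 CPM in MM4, and of the PYHIN members Ifi203 was lower in MM4 (6.39 CPM) than in MM2 (7.04 CPM). The 5 others were higher in MM4 than in MM2, with Ifi204 at 5.95 and 3.40 CPM, Ifi207 at 3.85 and 1.87 CPM, Ifi211 at 3.61 and 2.32 CPM, Ifi213 at 3.71 and 1.77 CPM and Mndal at 5.17 and 4.48 CPM in MM4 and MM2. In MM6, at 253 CPM of Ighg2b, Ifi203 (5.49 CPM), Ifi211 (1.94 CPM), Ifi213 (1.28 CPM) and Mndal (3.59 CPM) lay below MM2. Ifi204 (4.02 CPM) and Ifi207 (2.46 CPM) were higher in MM6 than in MM2.

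**Figure D5:**
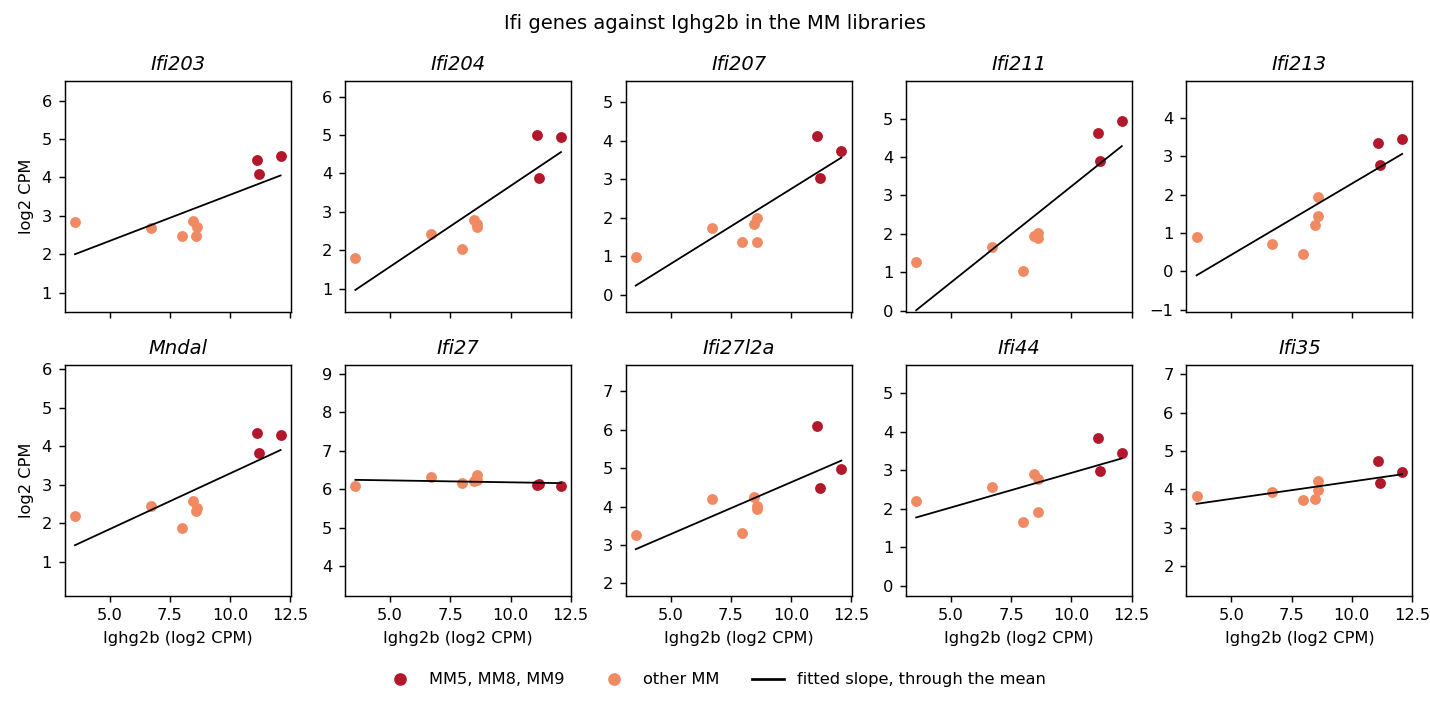
Log2 CPM of each gene against log2 CPM of Ighg2b in the 9 MM libraries, with MM5, MM8 and MM9 in dark red and the fitted slope drawn through the mean; every panel spans the same number of log2 units. The 3 dark red libraries lie together at the upper right in the PYHIN genes, and Ifi27 is flat.

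The other Ifi-named and PYHIN genes were taken as a list of 12, of which 7 were tested and 5 were higher in MM: Ifi206, Ifi208, Ifi209, Ifi47 and Ifi30. None was lower, and the median log2 fold change was 1.89 over the 7. Over all genes tested 2.75% were higher and 0.241% lower. The list was chosen with earlier results of these data known. Ifi206 and Ifi208 share sequence with Ifi213 of the set, and Ifi205 with Ifi211, so their values are not separate from those of the set. Ifi206, another PYHIN gene, was at 0.993, 1.53 and 6.47 CPM in MM libraries and 0.150, 0.466 and 0.904 CPM in SHAM libraries (lowest, median and highest), without overlap, and rose by a log2 fold change of 2.34 ± 0.42 (SE; edgeR adjusted p = 0.0111). It was the only gene of the list that also passed without MM5, MM8 and MM9 (1.52 ± 0.31, edgeR adjusted p = 0.0452). In that fit 0.331% of all genes tested were higher. Ifi209 rose by 2.33 ± 0.57 and Ifi208 by 1.89 ± 0.39 (log2 fold change ± SE; edgeR adjusted p of 0.0356 and 0.0211). Outside the PYHIN family, Ifi30, a lysosomal thiol reductase, rose by 1.83 ± 0.43 and Ifi47, an interferon-induced GTPase, by 1.46 ± 0.39 (edgeR adjusted p of 0.0311 and 0.0493).

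Ifi205 and Ifih1, the RNA sensor MDA5, did not pass: their log2 fold changes were 2.35 ± 0.64 and 0.61 ± 0.19 (SE), with edgeR adjusted p of 0.0526 and 0.0833. Aim2, the PYHIN sensor that builds an inflammasome, was kept out of the contrast by the filter on low counts, at 0.345, 1.46 and 7.97 CPM in MM libraries and 0.106, 0.244 and 0.623 CPM in SHAM libraries (lowest, median and highest). Within MM it had the steepest slope on Ighg2b of the list, 0.61 ± 0.06 (SE; edgeR adjusted p = 0.000293). Slopes of 8 listed genes were tested and 5 passed, all positive, where 9.37% of all genes tested had a positive slope that passed. Ifi202b, Ifi214, Ifi27l2b and Ifi44l stayed at or under 0.287 CPM in every library.

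From the interferon pathway, 19 of 23 listed genes were tested, 7 were higher in MM, none was lower and 12 did not pass. Over all genes tested 2.75% were higher. The median log2 fold change of the 19 was 0.32, and this list too was chosen with earlier results of these data known. The ligand genes were near the limit of detection: Ifnb1, Ifna4 and Ifnl2 were at 0 in every library and Ifng did not exceed 0.202 CPM. None of the 4 receptor genes passed, with log2 fold changes of 0.38 ± 0.16 for Ifnar2, 0.12 ± 0.09 for Ifngr1, 0.0 ± 0.07 for Ifnar1 and -0.05 ± 0.05 for Ifngr2 (SE; edgeR adjusted p between 0.164 and 0.983). Of the factors that carry the signal to the nucleus, Stat2 and Irf9 rose by 0.32 ± 0.08 and 0.77 ± 0.13 (log2 fold change ± SE; edgeR adjusted p of 0.0485 and 0.00986). Irf7, the factor that amplifies type I interferon, rose by 2.14 ± 0.34 (edgeR adjusted p = 0.00681).

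The DNA sensing genes Cgas and Sting1 (listed as Tmem173 in the annotation used) rose by 1.79 ± 0.40 and 1.65 ± 0.39, and Usp18, an inhibitor of interferon receptor signalling, rose by 1.20 ± 0.27 (log2 fold change ± SE; edgeR adjusted p between 0.0267 and 0.0311). Sting1 was at 5.07, 7.17 and 36.3 CPM in MM libraries and 2.89, 4.16 and 5.27 CPM in SHAM libraries (lowest, median and highest). Without MM5, MM8 and MM9 only Irf9 and Irf7 of the 7 genes that were higher passed, where 0.331% of all genes tested did. They were at 0.53 ± 0.09 and 1.41 ± 0.21 (log2 fold change ± SE, edgeR adjusted p of 0.0131 and 0.00957).

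To find genes with a like pattern, the mean of the 10 genes' standardised log2 CPM was correlated with every gene over 18 libraries after the group means had been subtracted. Among 14748 genes at a mean of at least 1 CPM, the 5 highest non-members were Ifrd1 (Pearson r = 0.955), Man2a1 (0.948), Pnp (0.942), Tlr13 (0.942) and Lgals3 (0.941). The members themselves lay between 0.811 for Ifi27l2a and 0.961 for Ifi207, except Ifi27 at -0.298. Each member is part of the mean it was correlated with, so these values cannot be set against those of non-members. Ighg2b had r = 0.588 and rank 3040. These values are a description, since libraries share depth and MM5, MM8 and MM9 weigh in every one of them.

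Several marker lists of other cells were also highest in MM5, MM8 and MM9, and others were not. Over all genes tested, 2.75% were higher in MM and 0.241% lower, and 9.37% had a positive slope on Ighg2b that passed. Of 10 macrophage markers 6 were higher in MM and none lower, and 5 had a positive slope on Ighg2b that passed in edgeR. Their summed level was 604 CPM in MM5, 487 CPM in MM9 and 317 CPM in MM8, and at most 149 CPM in the other MM libraries. It ran from 90.5 to 604 CPM over MM libraries and from 58.1 to 144 CPM over SHAM libraries, and none of the 10 was at or under 0.5 CPM in every library. Plasma and myeloma markers summed to between 135.6 and 8438 CPM in MM libraries and between 87.6 and 138.6 CPM in SHAM libraries, with 7 of 8 tested markers higher; Tnfrsf17 alone of the 10 listed was at or under 0.5 CPM in every library. B cell markers summed to 21.7 CPM in MM5, 13.1 CPM in MM8 and 26.1 CPM in MM9, against at most 4.98 CPM in the other MM libraries and 3.55 to 15.8 CPM over SHAM libraries, and 2 of 4 were lower in MM. T and NK cell markers summed to 9.41, 3.38 and 6.56 CPM in MM5, MM8 and MM9, against at most 3.10 CPM in the other MM libraries and 1.39 to 2.92 CPM over SHAM libraries; 3 of 5 tested had a positive slope on Ighg2b that passed in edgeR, and Ncr1 was at or under 0.5 CPM in every library. The part of these cells in the levels of the Ifi genes was not tested. Neuronal markers summed to between 4335 CPM (MM5) and 9291 CPM in MM libraries and between 6789 and 8831 CPM in SHAM libraries, and none of 5 passed. Red blood cell markers summed to 255.8 CPM in MM5, 159.4 CPM in MM8 and 87.0 CPM in MM9, against up to 175.4 CPM in the other MM libraries. They were lower in MM for 5 of 5, at 51.0 to 255.8 CPM in MM libraries and 235.5 to 2970 CPM in SHAM libraries. Schwann cell markers were at 10310 CPM in MM5 and 3159 CPM in MM9, against up to 6803 CPM in the other MM libraries. Endothelial markers were at 167.3 CPM in MM5 and 99.7 CPM in MM9, against up to 101.2 CPM. Neutrophil markers were at 89.3 CPM in MM5 and 22.6 CPM in MM8, against up to 54.0 CPM. Satellite glia markers were lowest in MM9 and dendritic markers in MM5. None in these lists passed by group, and 2 of 3 dendritic slopes on Ighg2b passed, both positive.

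PYHIN genes share sequence to different degrees, and shared sequence limits how well reads can be assigned to each. Of the 31-base words in the main transcript of Ifi211, 78.9% also occurred in transcripts of other genes, with Ifi205 (49.5%) and Ifi204 (38.6%) holding most of them. The share was 46.0% for Ifi204 and for Ifi213, 40.1% for Mndal, 21.1% for Ifi203 and 14.9% for Ifi207. Mndal also overlaps Ifi211 and Ifi203 on the same strand in the annotation, so the single values of Ifi211, Ifi204, Ifi213, Mndal and Ifi203 are uncertain. In the genes outside the family 13.4% of words were shared for Ifi35, with a gene on the opposite strand that overlaps it, 6.0% for Ifi27l2a, with Ifi27l2b, 0.522% for Ifi44 and 0.0% for Ifi27.

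At the level of transcripts, Ifi211 and Ifi27l2a have 1 annotated transcript each, so theirs could not divide. The leading transcript of Ifi207 held 100% of its TPM in every MM library and a median of 100% in SHAM, with 17.1% in the lowest SHAM library. The leading transcript of Ifi204 held a median 96.3% of Ifi204 TPM in MM and 95.5% in SHAM, and that of Ifi35 89.6% in MM and 89.2% in SHAM. In Ifi213 the leading transcript held a median 34.5% in MM and 30.4% in SHAM, with a range from 5.93% to 49.6% over MM libraries and from 9.79% to 69.4% over SHAM libraries. The leading transcript of Ifi203 ran from 0.0% to 59.8% over MM libraries and from 0.0% to 57.7% over SHAM libraries, so the transcript shares of these genes ranged widely within each group. Gene sums of Ifi213 also differed most from the authors' deposited normalized table, where 6 of 18 libraries lay within 10% of the sum, against 18 of 18 for Ifi204, Ifi207, Ifi211, Ifi27, Ifi27l2a and Ifi35.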

How the data were processed

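RNA of whole lumbar DRG was measured in 9 MM and 9 SHAM mice. Total RNA was sequenced by a provider on DNBSEQ instruments, per the labels. The authors quantified transcripts with Salmon 1.5.2 on build GRCm39, per the submitters' processing notes; index and options are not given in the sources used here. For every transcript the deposited files give an estimated count (not whole, not normalized), TPM scaled by Salmon and an effective length. A further deposited table holds a normalized signal per gene; DESeq2 is named in the submitters' processing notes.

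Estimated counts and TPM were summed per gene with GENCODE M21, which annotates GRCm38, by transcript number without version, and sums of counts were rounded. Of 137562 transcripts 3620 had no gene there and held 0.85% to 1.339% of reads; of the 10 genes 45 transcripts were in the files. After filterByExpr and TMM scaling, edgeR 4.0.16 (R 4.3.3) fitted a robust quasi-likelihood model of group alone; p was adjusted by Benjamini-Hochberg over all genes in the fit, with 0.05 as the threshold. The biological coefficient of variation was 0.258. Slopes used log2 CPM of Ighg2b (prior count 2) within MM. In counts simulated with SHAM levels and spread in both groups, the group fit recovered 48% of 1.25-fold and 98% of 4-fold changes. MM libraries spread more than SHAM libraries in Ifi211 (SD 10.9 and 0.82 CPM), so these shares need not hold for the set. In counts simulated from MM, the slope fit recovered 0% of 1.25-fold and 98% of 4-fold changes per 4 doublings of Ighg2b. Alternatives used DESeq2 1.42.0 and limma 3.58.1 on log2(value + 1) of the deposited table, other filters, scalings and sets of libraries. Motifs, words and plots used Python 3.11.15 and Biopython 1.88.

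Each library was taken as 1 mouse; the labels name no batch. The 10 genes and the lists were chosen with earlier results of these data known. Named are all 10 genes, the tested genes of the Ifi list, the ligands, receptors and passing genes of the pathway list except 1 that is not reported here, and the 5 genes most like the set; Nmi, Aim2 and the unmeasured Ifi genes were added after their values were seen. Coordinates are those of the reference promoters only, since the builds differ. At 19014161 to 21538262 reads per library, genes under 1 CPM rest on few reads.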

Additional observations from a re-analysis of the deposited data

Results flagged for a closer look

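Within each group of 9 libraries, a highest or lowest library was marked when its gap to the next exceeded the critical share of the group's range. Of 20 such groups (10 genes in MM and in SHAM) 2 were marked, both in Ifi27l2a. Chance marks about 1 in 20 where values are normally distributed and groups independent, which was not checked for these CPM. MM5 stood at 68.3 CPM of Ifi27l2a, with the next MM library at 31.3 CPM. SHAM8 stood at 17.8 CPM, with the next SHAM library at 8.77 CPM.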

How the results depend on the processing

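Counts of genes past the threshold in MM against SHAM moved with the setting. Over all genes 471 passed, against 1201 with DESeq2, 248 with limma on the deposited table, 60 without MM5, MM8 and MM9 and 35 without SHAM7 and SHAM8. For the 10 Ifi genes the count was 9, and 5 with no filter on low counts, 3 without MM5, MM8 and MM9 and 3 without SHAM7 and SHAM8. For the other Ifi genes it was 5, and 3, 1 and 0 under these settings and 2 with limma. For the pathway it was 7, and 4, 2 and 1 under these settings and 3 with limma. Leaving out 1 library gave 84 (without MM5) to 1014 (without MM2) over all genes, 3 to 9 of the 10 Ifi genes, 1 to 8 of the other Ifi genes and 2 to 8 of the pathway. The Ifi count fell to 3 without MM5, MM8, MM9 or SHAM7, to 4 without SHAM1, SHAM2, SHAM3, SHAM5 or SHAM9 and to 5 without SHAM8. With all libraries or 1 left out, the log2 fold change of each gene stayed above 0. Ifi44, Ifi204 and Ifi213 passed in all 18 fits with 1 library left out. This contrast in these libraries chose the 10 genes, so nothing is read from either.

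For the slope on Ighg2b 1697 genes passed, against 2567 with DESeq2, 3082 with cell cycle genes as the covariate, 688 without the 2 libraries farthest from the median and 19 without MM5, MM8 and MM9; leaving out 1 library gave 457 to 2166. Of the Ifi genes 6 passed, 0 without MM5, MM8 and MM9, and 0 (without MM9) to 6 with 1 library left out. The slope of Ifi27 was 0.032 and that of Ifi203 -0.038 without MM5, MM8 and MM9. The cause of these changes was not tested.

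With the replicate number as a block, 8 genes passed over all genes and 0 of the Ifi genes, of the other Ifi genes and of the pathway. The numbers did not pair the samples: correlations of same-numbered libraries ran from -0.32 to 0.263, and libraries 1 and 2 alone correlated best with their own number.

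Low values in SHAM limit Ifi213, Ifi211 and Ifi207 of the set, and Aim2, Ifi205, Ifi206, Ifi208, Ifi209 and Cgas of the lists. Ifi211 rested on 5 estimated reads in SHAM1. Sequence shared with other genes limits Ifi211 most, then Ifi204, Ifi213 and Mndal.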
